A study of Oryza sativa Japonica Group with 10 samples.

Results

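Rice seedlings held for 24 h in a solution low in phosphate were set against seedlings grown with sufficient phosphate, on 4 of the 10 Affymetrix arrays of the study, 2 per group, chosen by their titles. All seedlings were of the japonica cultivar Zhonghua 10, about a week old, sampled whole, and no transgene or mutation is named for any group. The other 6 arrays, taken 6, 48 and 72 h after the change to low phosphate, are used where they place a value at 24 h. The control has no stated harvest time, and the labels name no seedlings kept in sufficient phosphate for the same 24 h, so that low phosphate, time of day and an added day of age cannot be told apart in any comparison below.

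The core clock genes had the lowest median change of the 29 gene lists. The morning gene OsLHY was 11.4-fold higher and OsPRR1, OsGI, OsPRR73, OsPRR95, OsPRR37 and OsLUX were all lower. Of 5 tested phosphate-starvation markers 2 changed, the SPX-domain genes OsSPX1 and OsSPX2, up by 0.47 and 0.72 on the log2 scale. Both calls ended under some alternative settings, and of all genes 29.4% were called higher and 25.2% lower. The largest named rises included the aquaporins OsPIP2;5, OsTIP2;1 and OsPIP2;4 and the sugar transporter OsSWEET2b. Ammonium transporters, enzymes that make iron chelators, expansins, secondary-wall cellulose synthases and dehydrins were among the rises. Defence proteins were lower in 13 of 20 tested members and DREB factors in 4 of 7, against 25.2% of all genes.

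The plant clock is a loop of transcription factors that repress one another in turn through the day. Genes of the LHY kind peak around dawn, the pseudo-response regulators (PRR) follow through the day, and PRR1, GI and LUX peak towards evening. Phosphate is sensed in rice through PHR factors, which switch on starvation genes, and through SPX-domain proteins, which hold PHR factors back while phosphate is plentiful. The targets include PHT1 transporters in roots, PHO1 exporters that load the xylem, and enzymes that replace membrane phospholipids with galactolipids.

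A value below is the signal the authors deposited for a probe set, on a linear scale, or the difference of mean log2 signals, 24 h minus control, ± SE with n = 2 arrays per group. A gene is read from its brightest probe set. Adjusted p is from limma over 34355 probe sets above a mean signal of 23.9, and an adjusted p under 0.05 is called a change. Where both arrays of the dimmer group were under 23.9, only a lower limit of the change is given, measured from 23.9 and written as at least. Levels of different genes were not compared, since a probe set has its own brightness.

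The 4 arrays had median signals between 47.4 and 54.0, and all had been scaled to one target by the authors. Log2 signals correlated across tested probe sets with r = 0.947 between the arrays at 24 h, 0.955 between the control arrays and 0.899 to 0.905 across the groups. Over 28 control transcripts the 3′ over 5′ log2 ratio at 24 h less that in the control had a median of -0.17 and ran between -0.83 and 0.42. Markers of green tissue and of root were both bright. Their summed signals were 53469 and 52529 at 24 h against 71352 and 70943 in the control for 3 green markers, and 26729 and 27479 against 39163 and 39533 for 6 root markers. The lower sums came mainly from CAB2R and Lsi1, described below. Of 9 endosperm and seed-storage markers 3 were above the level of the filter, with summed signals over all 9 of 3211 and 3176 against 4258 and 4220. Of 6 pollen and anther markers 4 were, at 666 and 682 against 532 and 702. In whole seedlings a smaller share of a tissue and less RNA per cell cannot be told apart, and the part of tissue shares in any result was not tested.

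In limma 7076 probe sets (20.6%) were higher at 24 h and 6597 (19.2%) lower, with a median difference of 0.04 over all that were tested. Counted with 1 probe set per gene, 29.4% of 16081 genes were higher and 25.2% lower, and these shares are the background for the gene lists. Changes beyond 4 on the log2 scale were found in 94 probe sets upward and 66 downward. With 1 probe set per gene, both 24 h arrays lay above the other 8 arrays of the study in 15.8% of genes and below them in 16.1%. The plot of the lists shows every tested member of all 29, and the lists differ in both count and direction.

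**Figure D1:**
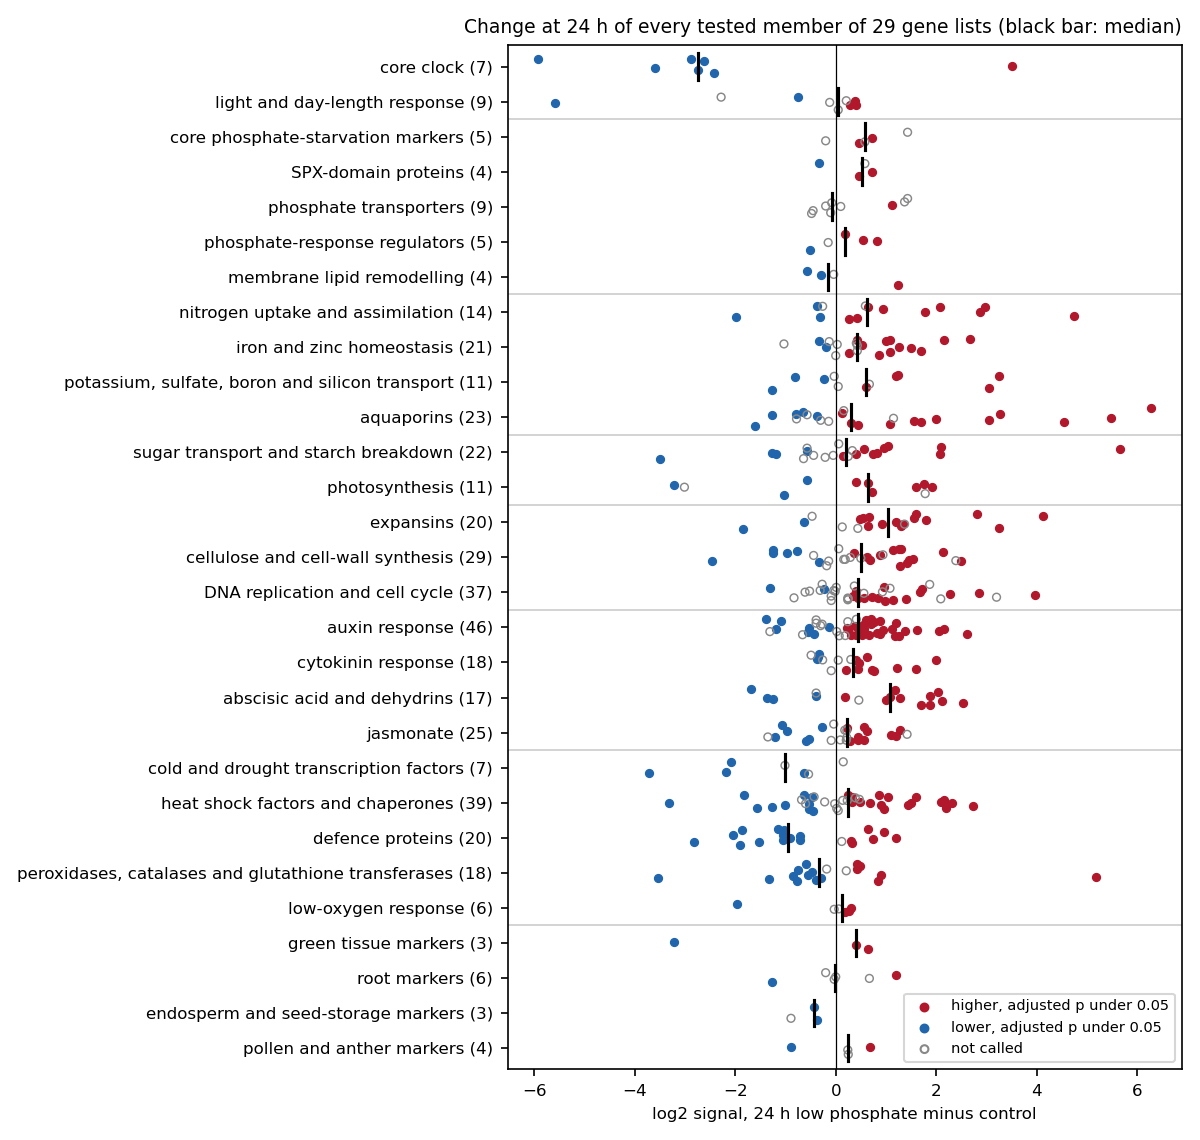
Difference in log2 signal, 24 h in low phosphate minus control, for each tested member of 29 gene lists (number tested in brackets), with filled points for adjusted p under 0.05 and black bars for the list's median. The core clock has the lowest median, -2.75, and the list of abscisic acid and dehydrins the highest, 1.09.

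Of 17 clock genes listed, 8 were matched to a gene and 7 were on the array. All 7 changed, 1 upward and 6 downward (background 29.4% and 25.2% of genes). Against the other 8 arrays, 5 of the 7 had both 24 h arrays below and 1 had both above (16.1% and 15.8% of all genes). OsLHY (LOC4344703), the MYB factor of the dawn loop, had signals of 12037 and 13107 at 24 h, against 1167 and 1035 in the control. Both arrays at 24 h were more than the other 8, whose highest value was 5143 at 72 h, and the rise over the control was 3.51 ± 0.07 (adjusted p = 4.70e-12). OsPRR1 (LOC4330000), the rice counterpart of TOC1 and a repressor active in the evening, stood at 22.1 and 29.9 at 24 h, against 1607 and 1505 in the control. It fell by 5.92 ± 0.16 (adjusted p = 5.99e-11), and 1 of the 24 h arrays was under the filter level. With an offset of 16 before the log the difference was -5.23. OsGI (LOC4325329), a large protein that joins the clock to flowering, gave 630.4 and 788 at 24 h and 8472 and 8652 in the control, a fall by 3.6 ± 0.08 (adjusted p = 1.85e-11).

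The 3 other pseudo-response regulators had their lowest signals of the study at 24 h as well. OsPRR73 (LOC4332464) had 697 and 681 at 24 h against 5050.3 and 4995 in the control and fell by 2.87 ± 0.05 (adjusted p = 3.76e-12). OsPRR95 (LOC4347674) had 1374 and 1360.2 against 8911 and 9480.4 and fell by 2.75 ± 0.05 (adjusted p = 1.76e-12). For OsPRR37 (LOC4344399), which also delays flowering in long days, the signals were 322 and 397 against 1927 and 1936, a fall by 2.43 ± 0.10 (adjusted p = 1.77e-09), while a dimmer probe set of the gene differed by 0.10 and was not called. In each of these genes the groups were far apart and the 2 arrays of a group close together. OsLUX (LOC4326391), a MYB factor of the evening complex, had 88.3 and 107 at 24 h against 662 and 539 in the control and fell by 2.62 ± 0.48 (adjusted p = 8.29e-04), but its signals at 6 h, 101 and 115, were in the same range as at 24 h.

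At the other low-phosphate times the clock genes stood at other levels. OsPRR1 had signals of 406 and 511 at 6 h, 2274 and 2262 at 48 h and 509 and 476 at 72 h. OsPRR73 had 4537 and 4688 at 6 h, 6229.8 and 5869 at 48 h and 6685 and 6383 at 72 h, so that at 48 and 72 h it was above the control arrays. OsLHY stood at 3099.5 and 2930.0 at 6 h, 2823 and 2907 at 48 h and 4947 and 5143 at 72 h, all above the control and all under 24 h. Between 24 h and 48 h all 7 clock genes were called (background 49.6% of genes), with OsLHY higher by 2.13 and OsPRR1 differing by -6.46. Between 24 h and 6 h all but OsLUX were called (background 53.2%). The hour of harvest is not given for any group in the sources used here.

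**Figure D2:**
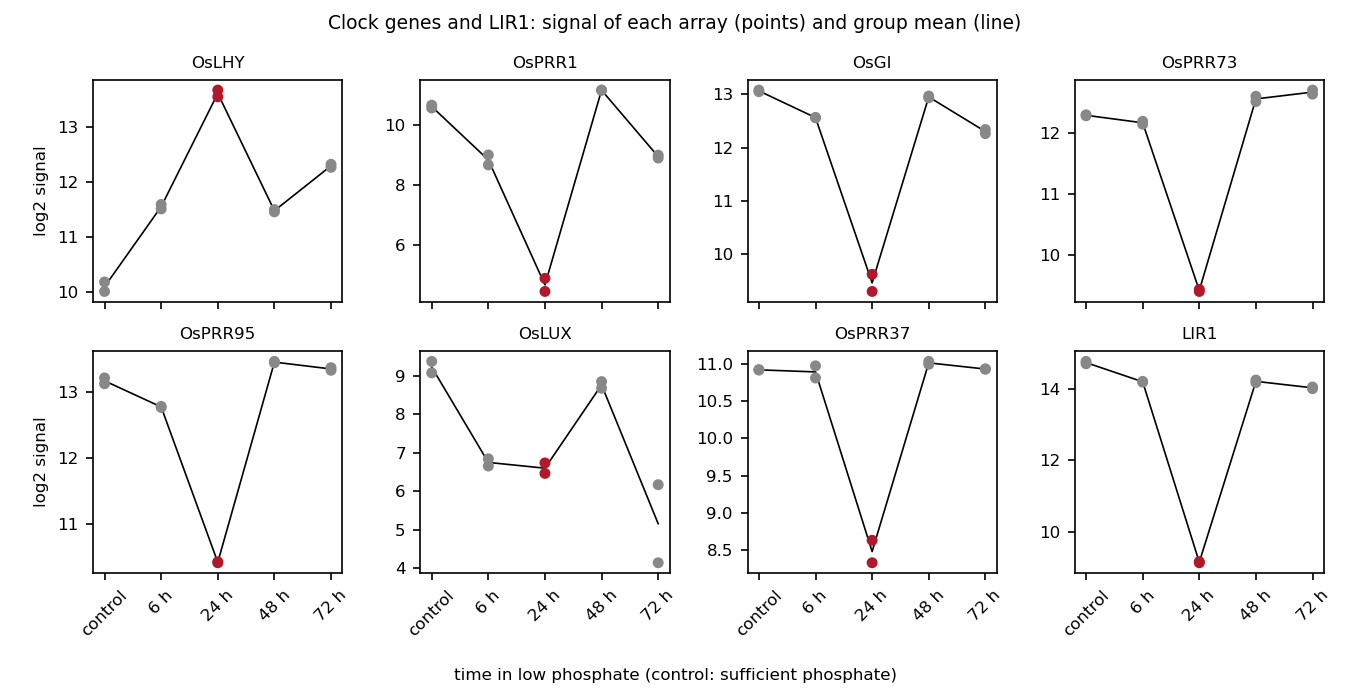
Log2 signal of each array for 7 clock genes and LIR1 over the 5 groups, with points for arrays (24 h in red) and a line through group means; each panel has its own vertical scale. OsLHY peaks at 24 h, 6 of the other 7 genes have their lowest point there, and OsLUX is lowest at 72 h.

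Among genes of light and day-length response, 36 were listed and 9 tested. Of these 3 rose, 2 fell (background 29.4% and 25.2% of genes) and 4 were not called. Their median was 0.05, and with either other scaling of the arrays it was -0.04 or -0.05, so no direction is given for the list. LIR1 (LOC4326442), a light-induced chloroplast protein that helps bind ferredoxin-NADP reductase to thylakoids, was the extreme member. Its signals were 574 and 561 at 24 h, against 26507 and 27760.5 in the control, and it fell by 5.58 ± 0.05 (adjusted p = 9.90e-15). No other group came near the 24 h arrays, since the lowest of the other 8 was 16367. The phytochrome gene PHYC fell by 0.76 ± 0.07 and PHYA rose by 0.38 ± 0.07, though a second probe set of PHYA gave -0.20 and was not called.

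PHYB, the main red-light receptor, rose by 0.29 ± 0.09 (adjusted p = 0.0222), and the call ended with median centring (0.22), without an intensity trend (0.0946), in a fit of the 2 groups alone (0.0507), without control replicate 2 (0.217) and without 24 h replicate 1 (0.118). OsMYBS3, a MYB repressor known from sugar and cold signalling, rose by 0.41 ± 0.05 in its brightest probe set and fell by 1.1 in another, with adjusted p of 1.48e-05 and 2.34e-08, so its direction is not settled. The flowering regulators Hd1, Ghd8 and Hd16 differed by 0.21, 0.05 and -0.12 and were not called. The florigen Hd3a had signals of 1.9 and 43.7 at 24 h and 46.6 and 42.1 in the control and was not called (adjusted p = 0.162). Without 24 h replicate 2 the Hd3a difference was called (0.00277), which leaves the array at 1.9.

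Outside these lists, 6 of the 12 largest named falls were also below all other 8 arrays of the study at 24 h (16.1% of all genes). OSH43, with both 24 h arrays under the filter level, is not counted among the 6. The genes were chosen for their fall at 24 h, so a low place at that time is partly built in. They are given here apart from the nutrient genes. OsBBD1 (LOC4326932), a bifunctional nuclease, had 52.4 and 74.7 at 24 h against 5085 and 5425 in the control and fell by 6.39 ± 0.14 (adjusted p = 1.09e-11), which was the largest fall of a named gene. The protein kinase OsCIPK10 had 433 and 452 against 6831 and 6874 and fell by 3.95 ± 0.08, and 3 further probe sets changed by -3.66 to -4.51. The zinc-finger gene OsC3H37 had 504 and 654 against 7869.7 and 8139.9 and fell by 3.8 ± 0.10. In all 3 genes both arrays at 24 h were far below both control arrays.

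OsCDSP32, a thioredoxin-like protein of chloroplasts, had 176 and 182 at 24 h against 2509.7 and 2251 in the control and fell by 3.73 ± 0.09, and a second probe set fell by 2.88. XBOS31, an ankyrin-repeat ubiquitin ligase, had 164 and 262 against 2590.0 and 2459 and fell by 3.6 ± 0.16. The catalase gene CATA, whose product removes hydrogen peroxide, had 1086 and 1173 against 12862 and 13272 and fell by 3.53 ± 0.06, and its other probe sets fell by 3.76 and 4.23. OsCDSP32 and OsCIPK10 were above the control arrays at 48 h, with 2971 and 3275 for OsCDSP32 and 8749.9 and 8706 for OsCIPK10. OSH43, a KNOX homeobox gene, was lower by at least 1.59, from signals of 12.3 and 3.2 at 24 h and 96.3 and 53.8 in the control, and with both 24 h arrays under the filter level its rank among the times is not given.

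**Figure D3:**
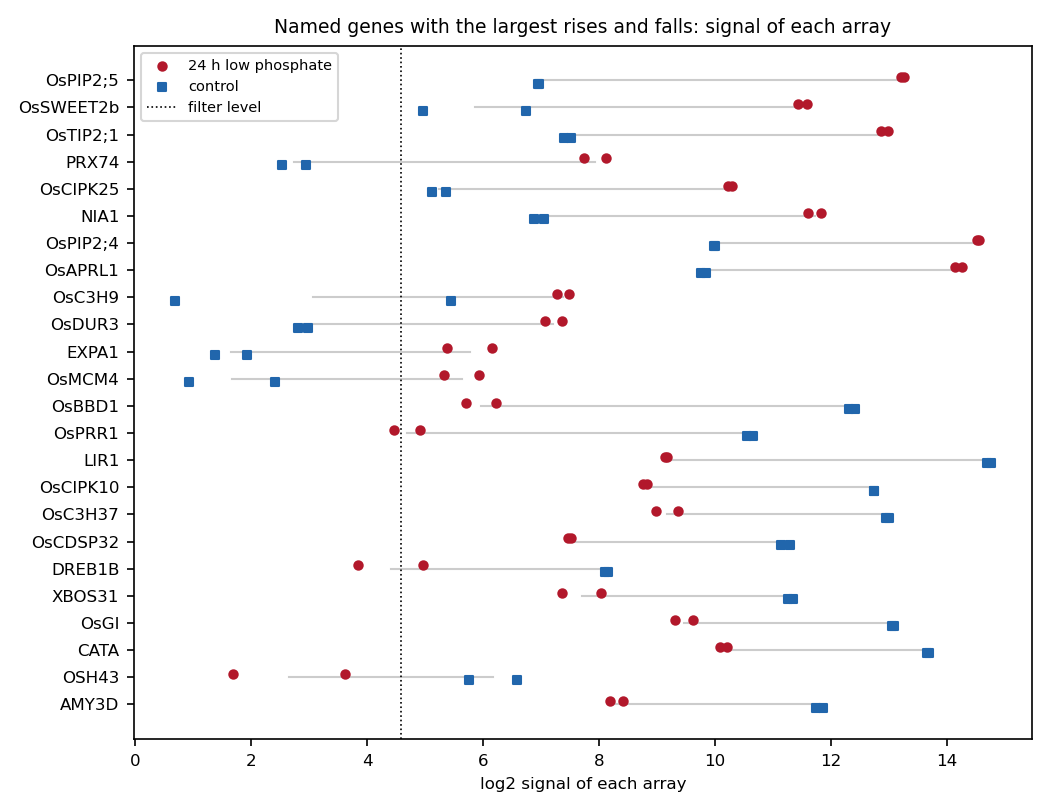
Log2 signal of each array at 24 h in low phosphate (red circles) and in the control (blue squares) for the 12 named genes with the largest rises and the 12 with the largest falls, with the filter level as a dotted line. The groups do not overlap in any of them, by the rule that chose them, and both control arrays of PRX74, OsDUR3, EXPA1 and OsMCM4 lie under the filter level.

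The 2 phosphate-starvation markers that changed both rose. OsSPX1 (LOC4341465), an SPX-domain inhibitor of PHR2 and a standard marker, had signals of 1016 and 1299 at 24 h, against 864 and 798 in the control, and rose by 0.47 ± 0.12 (adjusted p = 0.00732). That call ended without control replicate 2 (0.0575) and without 24 h replicate 2 (0.0731). OsSPX2 (LOC4328654), its close relative, had 629 and 433 at 24 h against 390.3 and 256 in the control and rose by 0.72 ± 0.23 (adjusted p = 0.0253). Its call ended under 5 settings, without control replicate 2 (0.235), without 24 h replicate 1 (0.211), without an intensity trend (0.0999), with median centring (0.0659) and in a fit of the 2 groups alone (0.0503). The arrays of the groups did not overlap in either gene, but the lower 24 h array of OsSPX2, 433, was close to the higher control array, 390.3.

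No rise was called in the other SPX genes. OsSPX4, which keeps PHR2 out of the nucleus, had 1328 and 1271 at 24 h against 1633 and 1623 in the control and fell by 0.33 ± 0.07 (adjusted p = 0.00179), while its second probe set differed by -0.17 and was not called. OsSPX5 was dim, with 52.2 and 20.9 against 24.3 and 20.2, and was not called. Its second probe set had 38.1 and 28.6 against 9.9 and 12.8. It was not called (adjusted p = 0.0906), and both control arrays were under the filter level. OsSPX3 stayed under the filter and was not tested. Of 13 core starvation markers listed, 7 were matched, 6 were on the array and 5 were tested. Of these 2 rose and none fell (background 29.4% and 25.2% of genes). The tested markers are all counted again among the SPX proteins or the transporters.

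Among 22 phosphate transporters listed, 9 were tested and 1 was called, a rise (background 29.4% of genes higher and 25.2% lower). OsPHO1;2 (LOC4331090), which moves phosphate into the xylem, had 4428 and 4216 at 24 h against 2037 and 1968 in the control and rose by 1.11 ± 0.06 (adjusted p = 3.96e-08). Its 24 h arrays were above all other 8, but a second, dimmer probe set gave -0.03 and was not called. The bright PHT1 importers differed by small amounts. OsPht1;1 had 3273 and 3205 against 3309.7 and 3526, OsPht1;2 had 3617 and 4136 against 4674 and 4215 and OsPht1;8 had 1407 and 1478 against 1455 and 1236. Their differences of -0.08, -0.20 and 0.10 were not called, as was that of OsPht1;4 at -0.10.

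OsPht1;2 was called lower with median centring (0.0154) and without 24 h replicate 2 (0.028). OsPht1;6, with 27.6 and 70.5 at 24 h against 59.4 and 4.5 in the control, was not called, and without control replicate 1 it was called higher (0.0136). OsPht1;3 and OsPht1;11 gave -0.45 and -0.48 with SE of 1.01 and 0.80, so that changes of this size in them were not detectable. OsPHO1;3 was not called, with 19.1 and 49.6 at 24 h and both control arrays under the filter level. OsPht1;7 and OsPht1;12 were under the filter.

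Of 5 tested regulators of the phosphate response 3 were called higher and 1 lower (background 29.4% and 25.2% of genes). OsPHR1, a MYB activator of starvation genes, had 1472 and 1414 at 24 h against 978 and 998 in the control and rose by 0.55 ± 0.08 (adjusted p = 1.05e-04). OsPHR2, the central factor of the response in rice, had 2407 and 2323 against 2034 and 2112 and rose by 0.19 ± 0.06 (adjusted p = 0.0247), and a second probe set rose by 0.65. The first OsPHR2 call ended without control replicate 1 (0.131) or 24 h replicate 1 (0.0906), with median centring (0.436), without a trend (0.0799) and with the 2 groups alone (0.0795). OsPHR3 had 1654 and 1573 against 2444 and 2189 and fell by 0.52 ± 0.10 (adjusted p = 0.00143).

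OsARF16, an auxin response factor with a known part in the root response to low phosphate, had 1114 and 1048 at 24 h against 599 and 614 in the control and rose by 0.83 ± 0.09 (adjusted p = 1.10e-05). The SUMO ligase OsSIZ1 differed by -0.15 and was called lower only with median centring (0.0429). Among lipid genes OsMGD1, a galactolipid synthase of plastids, had 2550.2 and 2216 against 978 and 1036, with both 24 h arrays above the other 8, and rose by 1.24 ± 0.08 (adjusted p = 1.51e-07). OsMGD3 had 648 and 668 against 935 and 1022 and fell by 0.57 ± 0.09, and the phospholipase gene OsPLD1 fell by 0.29 ± 0.04. OsMGD2 was dim and not called. Of 19 lipid genes listed 4 were tested.

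**Figure D4:**
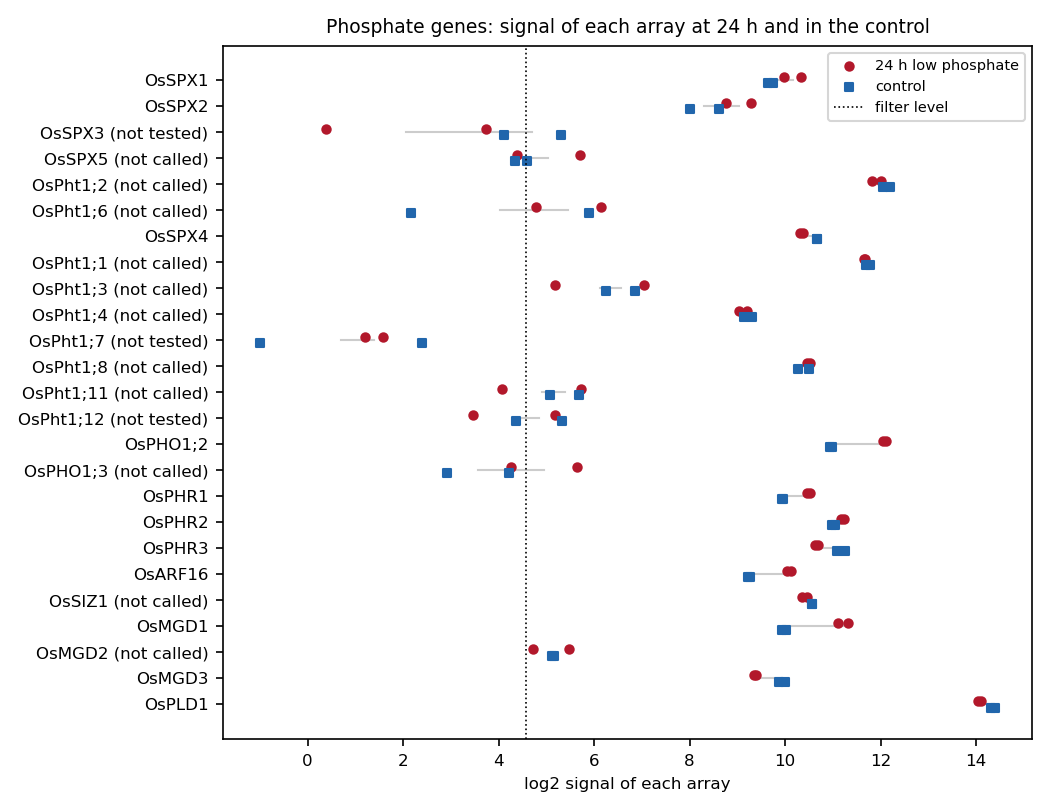
Log2 signal of each array at 24 h in low phosphate (red circles) and in the control (blue squares) for the measured phosphate genes, with the filter level as a dotted line. The largest called differences are those of OsMGD1 (1.24) and OsPHO1;2 (1.11), and the dim genes at the left scatter as widely within a group as between groups.

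Nitrogen genes rose in 9 of 14 tested members and fell in 3 (background 29.4% and 25.2% of genes). NIA1 (LOC4345795), a nitrate reductase, had 3099 and 3649.8 at 24 h against 133 and 118 in the control and rose by 4.75 ± 0.10 (adjusted p = 9.88e-12), and a dim second probe set gave -0.34 without a call. The ammonium transporter OsAMT1;2 had 3848 and 3376 against 463 and 450.3, and OsAMT1;1 had 7754 and 6481 against 913 and 1014. They rose by 2.98 ± 0.10 and 2.88 ± 0.10 (adjusted p = 2.78e-10 and 3.55e-10), and 24 h was the highest of all 5 groups for both. The cytosolic glutamine synthetase OsGS1;2 rose by 2.08 ± 0.06, with signals of 6700.4 and 6852 against 1638 and 1577. Outside the list, the urea transporter OsDUR3 had 134 and 164 against 7.0 and 7.9 and rose by at least 2.63. Of the 14 tested, 6 had both 24 h arrays above the other 8 and 1 below, against 15.8% and 16.1% of all genes.

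Iron and zinc genes rose in 12 of 21 tested members and fell in 2 (background 29.4% and 25.2%), with a median of 0.43. OsNAS2 (LOC4332607), which makes the metal chelator nicotianamine, had 23781 and 22333 at 24 h against 5071 and 5233 in the control and rose by 2.16 ± 0.05 (adjusted p = 7.97e-12). OsNAAT1, the next enzyme towards iron-binding phytosiderophores, rose by 1.7 ± 0.04 and the zinc transporter OsZIP4 by 1.5 ± 0.24. The vacuolar iron transporter OsVIT2 had 160.2 and 253 against 51.7 and 19.2 and rose by 2.68 ± 0.38, but at 6 h it stood at 14552 and 13648, far above 24 h. For OsVIT2, 1 control array was under the filter level, and the rise was 3.39 without control replicate 1 and 1.96 without control replicate 2. The 2 falls, named here after their values were seen, were in root uptake transporters. OsIRT1, an iron importer, had 15994 and 14487 at 24 h against 19121 and 19505 in the control and fell by 0.34 ± 0.06 (adjusted p = 8.57e-04). OsNRAMP5, which takes up manganese and iron, had 2537 and 2581 against 2863 and 2958 and fell by 0.19 ± 0.05 (adjusted p = 0.0108), a call that ended without a trend (0.0728), with the 2 groups alone (0.0671) and without control replicate 2 (0.075).

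Of 11 tested genes of potassium, sulfate, boron and silicon transport, 5 rose and 3 fell (background 29.4% and 25.2% of genes). OsHKT1;5, which takes sodium out of the xylem, had 2924 and 2877 at 24 h against 352 and 266 in the control and rose by 3.25 ± 0.13 (adjusted p = 1.76e-09). Lsi6, a silicon channel of leaf sheaths, had 304 and 249 against 24.3 and 46.1 and rose by 3.04 ± 0.36, and the potassium transporter OsHAK1 rose by 1.24 ± 0.09. Lsi1, the silicon channel of the root, had 9107 and 8480.4 against 20794 and 21309, with both 24 h arrays below the other 8, and fell by 1.26 ± 0.04 (adjusted p = 6.01e-10). Its partner, the root exporter Lsi2, gave 6827 and 7045 against 6886 and 7264 and was not called.

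Aquaporins rose in 12 of 23 tested members and fell in 5 (background 29.4% and 25.2%), with a median of 0.30. OsPIP2;5 (LOC4343121), a plasma-membrane water channel, had 9438 and 9767 at 24 h against 123 and 124 in the control and rose by 6.28 ± 0.07 (adjusted p = 4.56e-14), the largest rise of a named gene. OsPIP2;4 (LOC4343119), of the same family, had 23868 and 23560.3 against 1027 and 1009 and rose by 4.54 ± 0.05. Both genes were also above the control at 6, 48 and 72 h and highest at 24 h. The vacuolar-membrane channels OsTIP2;1 and OsTIP1;2 had 8079 and 7440.5 against 169 and 182 for OsTIP2;1 and 13472 and 14568 against 1353 and 1575 for OsTIP1;2, with rises of 5.47 ± 0.08 and 3.26 ± 0.12. A second probe set of OsTIP2;1 rose by 4.56. Lsi1 and Lsi6, described above, belong to the same family and are counted in it. Of the 23, 10 had both 24 h arrays above the other 8 and 2 had both below, against 15.8% and 16.1% of all genes.

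Sugar transport and starch breakdown gave 10 rises and 4 falls among 22 tested (background 29.4% and 25.2% of genes). OsSWEET2b (LOC4326923), a sugar transporter of the SWEET family, had 2745 and 3058 at 24 h against 106 and 31.3 in the control and rose by 5.65 ± 0.42 (adjusted p = 4.06e-07), and a second probe set rose by 5.74. The control arrays differed, and the rise was 4.77 without control replicate 2 and 6.53 without control replicate 1. Its signals at 48 h, 76.2 and 77.0, were in the range of the control. OsSWEET14 rose by 2.07 ± 0.11, with 12805 and 14368 against 3434 and 3051, and the trehalose phosphate phosphatase OsTPP2 rose by 2.09 ± 0.21. AMY3D (LOC4345814), an alpha-amylase known to be induced by sugar starvation, had 341 and 290.1 against 3703 and 3434 and fell by 3.5 ± 0.14 (adjusted p = 2.15e-09). AMY3D was lower still at 6 h, with 90.9 and 110.1, and at 48 h, with 149.9 and 165, and higher than at 24 h at 72 h, with 774 and 709.8.

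Photosynthesis genes had 6 rises and 3 falls among 11 tested (background 29.4% and 25.2% of genes). CAB2R (LOC4324599), a chlorophyll-binding protein of the light-harvesting antenna, had 4012 and 4038 at 24 h against 37178 and 37972 in the control and fell by 3.22 ± 0.05 (adjusted p = 9.09e-13). The lowest of the other 8 arrays was 18764, and a second probe set fell by 3.12. OsCHLH, a subunit of the chelatase that starts chlorophyll synthesis, had 5035 and 5180.0 against 1381 and 1310.0 and rose by 1.92 ± 0.07, while a dim second probe set gave -0.55 and was not called. PSB28, a photosystem II assembly factor, rose by 1.75 ± 0.08 and OsGLK1, a regulator of chloroplast development, by 1.6 ± 0.10. The carbon-fixation genes RBCS and RCA, which encode the small subunit of Rubisco and its activase, rose by 0.40 ± 0.04 and 0.65 ± 0.04. Other probe sets of RBCS rose by 0.58 in 1 case and gave -0.33 without a call in another. Probe sets of families such as RBCS and CAB can take up signal from near-identical members.

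Expansins, which loosen growing cell walls, rose in 14 of 20 tested members and fell in 2 (background 29.4% and 25.2% of genes). Their median of 1.05 kept its sign under both other scalings. EXPB7 (LOC4331300), a beta-expansin, had 1531 and 1453 at 24 h against 218 and 207 in the control and rose by 2.81 ± 0.09 (adjusted p = 2.17e-10). EXPA1 had 71.4 and 41.6 against 2.6 and 3.8 and rose by at least 1.19, and EXPB18 had 69.4 and 72.8 against 18.3 and 3.1 and rose by at least 1.57. The calls of EXPA1 and EXPB18 ended in a fit of the 2 groups alone (0.0812 and 0.0628). EXPB17 fell by 1.85 ± 0.49, a call that ended without control replicate 2 (0.0721), and another of its probe sets was not called. No expansin had both 24 h arrays above the other 8, against 15.8% of all genes. EXPB7 was at 1902 and 1775 at 6 h and 2046 and 2092 at 48 h.

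Cell-wall synthesis genes had 13 rises and 6 falls among 29 tested (background 29.4% and 25.2% of genes). The cellulose synthases of the secondary wall, CESA9, CESA7 and CESA4, rose by 2.49 ± 0.39, 2.13 ± 0.29 and 1.54 ± 0.22. CESA4 had 392 and 334 at 24 h against 121 and 128 in the control, CESA7 had 339 and 306 against 57.5 and 93.8 and CESA9 had 169 and 204 against 39.5 and 27.6. All 3 were highest at 24 h of the 5 groups. A second probe set of CESA4 had 457 and 360.1 at 24 h against 20.8 and 42.0 in the control and rose by 3.78 ± 0.37 (adjusted p = 4.30e-06). CSLE1, a cellulose synthase-like gene, had 505 and 457 against 2557 and 2743, with both 24 h arrays below the other 8, and fell by 2.46 ± 0.09 (adjusted p = 7.72e-10).

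DNA replication and cell-cycle genes rose in 15 of 37 tested members and fell in 2 (background 29.4% and 25.2%), and 20 were not called. The named members were dim, and their calls ended under some alternatives. OsMCM4 and OsMCM5, subunits of the replicative helicase, had 60.8 and 40.1 at 24 h against 5.3 and 1.9 in the control for OsMCM4 and 28.5 and 63.4 against 5.7 and 6.1 for OsMCM5. They rose by at least 1.05 and 0.83, and OsORC1, of the origin recognition complex, by at least 0.60. The cyclin gene CYCD6-1 rose by 1.71 ± 0.52. In a fit of the 2 groups alone these 4 calls ended, at 0.109, 0.152, 0.241 and 0.0813, and those of OsORC1 and CYCD6-1 ended as well without control replicate 2 (0.0893 and 0.0832) or 24 h replicate 1 (0.141 and 0.171).

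Auxin genes rose in 28 of 46 tested members and fell in 7 (background 29.4% and 25.2% of genes). With each array centred on its median 20 rose and 9 fell. At 24 h 17 members were above and 6 below all other 8 arrays, against 15.8% and 16.1% of all genes. GH3-8, which inactivates auxin by joining it to amino acids, had 1031 and 882 at 24 h against 133 and 183 in the control and rose by 2.61 ± 0.19 (adjusted p = 3.43e-07). The carriers OsPIN5 and OsPIN5a rose by 2.15 ± 0.30 and 1.61 ± 0.17, and the response factor ARF23 had 12304 and 9880.3 against 2727 and 2584 and rose by 2.05 ± 0.08. Cytokinin genes rose in 10 of 18 and fell in 3 (the same background), and in 7 and 3 with median centring. The response regulators OsRR1 and OsRR2 rose by 1.99 ± 0.47 and 1.59 ± 0.12 and the receptor HK4 by 0.77 ± 0.13. CKX3, an enzyme that degrades cytokinin, rose by 1.21 ± 0.45 (adjusted p = 0.0495), a call that ended under 10 of the 11 alternatives run for it.

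Abscisic acid genes and dehydrins had 11 rises and 4 falls among 17 tested (background 29.4% and 25.2%), with a median of 1.09. Of the 17, 11 had both 24 h arrays above the other 8, against 15.8% of all genes. LIP9 (LOC4330265), a dehydrin made under cold and drought, had 14813 and 17913 at 24 h against 2838 and 2816 in the control and rose by 2.53 ± 0.08 (adjusted p = 1.84e-10). OsLEA3-1, a late-embryogenesis protein, had 5244 and 5222 against 1316 and 1099 and rose by 2.12 ± 0.10. The phosphatase OsPP2C09, a brake on abscisic acid signalling, rose by 2.03 ± 0.10 and the dehydrin RAB16D by 1.88 ± 0.09. Jasmonate genes had 10 rises and 6 falls among 25 (the same background), and 6 and 6 with median centring. The repressors JAZ10 and JAZ4 rose by 1.27 ± 0.16 and 1.1 ± 0.11, and a second probe set of each gave 1.0 and 1.08 without a call. OsJAR1, which makes the active jasmonate conjugate, rose by 1.2 ± 0.21, while OsAOC, an enzyme of jasmonate synthesis, had 823 and 898 against 2481 and 1576 and fell by 1.2 ± 0.17.

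The DREB factors, which switch on cold and drought genes, fell in 4 of 7 tested members and rose in none (background 25.2% and 29.4%). DREB1B (LOC4347618) had 31.3 and 14.4 at 24 h against 273 and 283 in the control and fell by 3.71 ± 0.81 (adjusted p = 0.00284), with 1 of the 24 h arrays under the filter level and a difference of -2.95 with an offset of 16. DREB1A had 220.5 and 168 against 836 and 906 and fell by 2.18 ± 0.17, and DREB1G was lower by at least 1.71. DREB2B fell by 0.63 ± 0.22 (adjusted p = 0.0393), and this call ended without the filter (0.0574), without a trend (0.0858) and without control replicate 1 (0.104), control replicate 2 (0.139) or 24 h replicate 1 (0.201). Heat shock factors and chaperones rose in 18 of 39 and fell in 10 (background 29.4% and 25.2%), and with median centring in 13 and 11. HSFA2A rose by 2.73 ± 0.19, with 691 and 725 against 91.8 and 124, and its dim probe sets gave 0.37 and 0.87 without a call. The small chaperone gene HSP18.6 rose by 2.2 ± 0.17, and HSFC1B had 152 and 179 against 1624 and 1672 and fell by 3.32 ± 0.20 (adjusted p = 5.81e-08). HSFA2B rose by 2.31 ± 0.74, a call that ended without control replicate 1 (0.191), 24 h replicate 1 (0.13), a trend (0.0542) or the other groups (0.0881), and the rise was 1.2 without control replicate 1 and 3.42 without control replicate 2.

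Defence proteins were lower in 13 of 20 tested members and higher in 6 (background 25.2% and 29.4%), with a median of -0.95. The chitinase Cht3, which degrades fungal walls, had 1535 and 1395 at 24 h against 5595 and 5422 in the control and fell by 1.91 ± 0.07 (adjusted p = 6.21e-10). Cht5 had 18.7 and 56.6 against 222 and 239 and fell by 2.82 ± 0.52, with a difference of -3.62 without 24 h replicate 2 and -2.03 without 24 h replicate 1. KSL7 and KSL10, synthases of diterpene phytoalexins, fell by 1.86 ± 0.26 and 2.04 ± 0.60, and the KSL10 call ended without either control array (0.0909 and 0.0711) or 24 h replicate 1 (0.0728). A dim probe set of KSL7 gave 0.45. For these 4 genes 24 h was not the lowest time, and KSL10 stood at 6.7 and 26.8 at 6 h.

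Peroxidases, catalases and glutathione transferases fell in 10 of 18 tested members and rose in 6 (background 25.2% and 29.4% of genes). PRX74, a secreted peroxidase, was the exception in size, with 213 and 276 at 24 h against 5.8 and 7.7 in the control and a rise of at least 3.34. The glutathione transferase GSTU6 fell by 1.32 ± 0.06 and GSTZ5 rose by 0.90 ± 0.06. Low-oxygen genes had 3 rises and 1 fall among 6 (background 29.4% and 25.2%), and no rise with median centring. ADH2 (LOC4350054), an alcohol dehydrogenase of fermentation, had 894 and 905 at 24 h against 3439.7 and 3542 in the control and fell by 1.96 ± 0.05 (adjusted p = 3.29e-11). OsSnRK1A, PDC2 and MYBS1 rose by 0.30 ± 0.08, 0.26 ± 0.06 and 0.18 ± 0.07, and these small rises ended with median centring (0.102, 0.156 and 0.478). The OsSnRK1A and MYBS1 calls also ended without a trend (0.0692 and 0.169), and that of MYBS1 under 6 further settings.

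Other large rises lay outside the lists. OsCIPK25, a calcineurin B-like interacting kinase, had 1188 and 1259.9 at 24 h against 34.6 and 40.9 in the control and rose by 5.02 ± 0.26 (adjusted p = 1.74e-08). OsAPRL1 (LOC4343348), of the family of proteins like adenosine phosphosulfate reductase, had 19576 and 18018 against 865 and 922 and rose by 4.39 ± 0.10, with further probe sets up by 4.43 and by at least 2.32. OsC3H9, a zinc-finger gene, had 155 and 179 against 43.4 and 1.6 and rose by 4.32 ± 1.11 (adjusted p = 0.0079), a call that ended without a trend (0.0553). Its rise was 6.7 without control replicate 1, which leaves the array at 1.6, and 1.94 without control replicate 2. OsCIPK25 and OsAPRL1 were highest at 24 h of the 5 groups, at levels well above 48 and 72 h.

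The tissue markers moved unevenly. OsAKT1, a root potassium channel, rose by 1.19 ± 0.14, Lsi1 fell, and Lsi2, OsYSL15, OsPht1;2 and OsCASP1 were not called, OsCASP1 with 193 and 311 at 24 h against 152 and 156 in the control and a call without 24 h replicate 1 (0.0302). Of the seed proteins, GLUA2 fell by 0.44 ± 0.07 and GLB1 by 0.37 ± 0.07, and GLUB4 was not called. A second probe set of GLUA2 was higher at 24 h by 0.29 and was not called. The anther gene OsCP1 fell by 0.89 ± 0.24 and OsMS1 rose by 0.69 ± 0.20, but the first call ended without control replicate 2 (0.0956) or 24 h replicate 1 (0.0568) and the second without control replicate 1 (0.141) or 24 h replicate 2 (0.106). OsC6 and MSP1 were not called, and RTS and TDR were under the filter.

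Set against the neighbouring times, 24 h differed from 6 h in 13502 probe sets (39.3%), 6701 higher and 6801 lower, and from 48 h in 12299 (35.8%), 5273 higher and 7026 lower. The direction of several named genes held over the whole course. OsPIP2;5, OsTIP2;1, EXPB7 and OsNAS2 were above the control at 6, 24, 48 and 72 h. The clock genes OsPRR73, OsPRR95 and OsPRR37, and with them CSLE1, OsAOC and ADH2, were below the control at 24 h. Their means at 48 h lay above it, by 0.06 for CSLE1 to 1.36 for ADH2, which was not tested. RAB16D and OsLEA3-1 took the opposite course, with RAB16D at 10362 and 8845 at 24 h and 1666 and 1459 at 48 h, the lowest of the study.

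**Figure D5:**
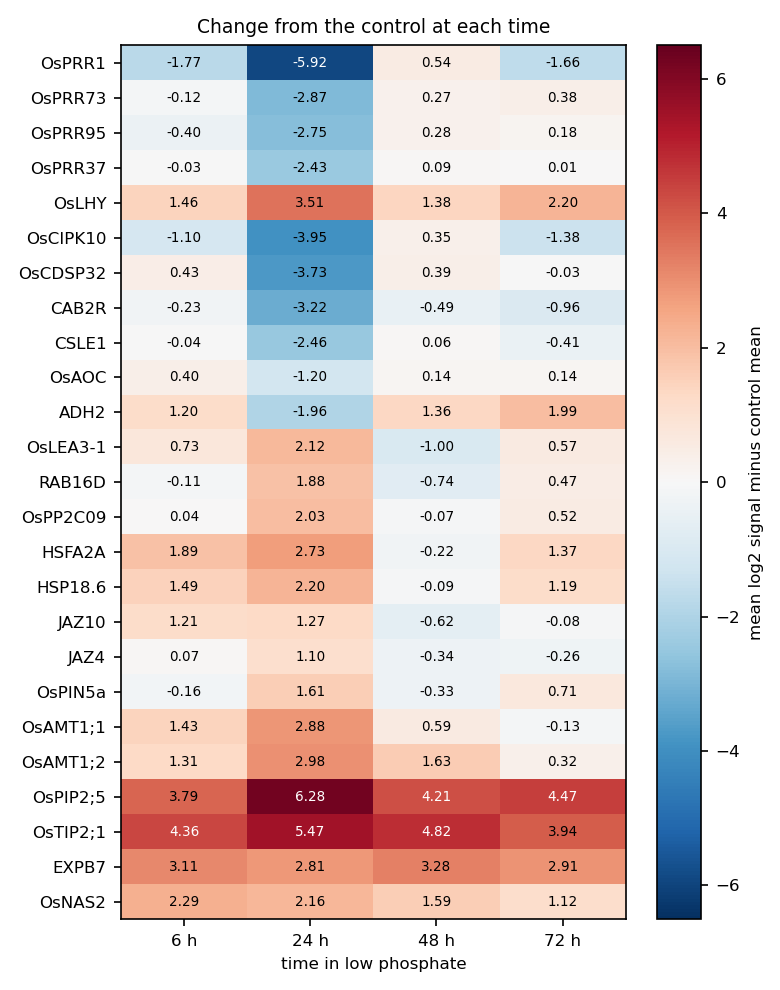
Mean log2 signal at 6, 24, 48 and 72 h in low phosphate minus the control mean for 25 named genes, with the value in each cell and colour by size. The clock genes at the top stand out at 24 h, the 8 genes from OsLEA3-1 to OsPIN5a are below the control at 48 h, and the aquaporins, EXPB7 and OsNAS2 at the bottom are above it at each time.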

How the data were processed

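The authors deposited an intensity (MAS5 signal, not logged) for each probe set on each array. GCOS and MAS5 made it, per the submitters' processing notes, in versions not given in the sources used here. All arrays had a trimmed mean of 500.1, so each was scaled before deposit. Of 57381 probe sets, 123 controls were left out. The platform annotation names 1 gene for 22436 of the rest, 95 list several genes and were not named, and the 17905 genes were all found in a RefSeq table. Intensities were taken to log2. Probe sets above the 40th percentile of the mean over 10 arrays were tested with limma 3.58.1 in R 4.3.3, as group means of all 5 groups with an intensity trend in eBayes, two-sided, with Benjamini-Hochberg adjustment over 34355 probe sets. The sample titles call the 2 arrays of a group biological replicates. SE and p-values rest on the spread within all 5 groups, 2 samples each, moderated across probe sets.

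Named genes are the 12 largest called rises and falls with a published name and non-overlapping groups, all clock, phosphate and tissue list members, and up to 4 called members with the largest change of each other list. The comparison, lists and members were chosen with earlier results of these data known. Of 30 lists, the acid phosphatases had no matched gene, and 8 ambiguous matches were dropped. Alternatives were other filters, quantile normalization, median centring, an offset of 16, no trend, a replicate block, the 2 groups alone and each array left out. Promoter and protein sequences were not used here. The script was tested on simulated data.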

Additional observations from a re-analysis of the deposited data

Results flagged for a closer look

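For 26 of the 133 named genes that were tested, the change at 24 h was called, the mean at 48 h lay on the other side of the control, and 24 h and 48 h differed in limma. They were 23.2% of the 112 named genes called at 24 h, against 24.3% of all 8775 genes so called with 1 probe set per gene, so this share was near the background (13.2% of all genes tested). Given here are the differences 24 h minus 48 h on the log2 scale, each with n = 2 arrays per group.

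Among clock genes the difference was -6.46 for OsPRR1, -3.13 for OsPRR73, -3.03 for OsPRR95 and -2.53 for OsPRR37. The kinase gene OsCIPK10 gave -4.30 and the chloroplast thioredoxin-like gene OsCDSP32 gave -4.12. ADH2 gave -3.32, with signals of 894 and 905 at 24 h, against 9083 and 8835 at 48 h. The cell-wall gene CSLE1 gave -2.52, the jasmonate-synthesis gene OsAOC -1.34, OsMGD3 -0.84, DREB2B -0.80, and OsSPX4 and the seed globulin GLB1 -0.47 each.

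On the other side, OsLEA3-1 gave 3.12, with signals of 5244 and 5222 at 24 h, against 622 and 579.9 at 48 h. HSFA2A gave 2.95, RAB16D 2.62, HSP18.6 2.28, OsPP2C09 2.11, OsPIN5a 1.94, JAZ10 1.88 and JAZ4 1.44. OsMS1 gave 1.17, OsMYBS3 0.68, RCA 0.66, MYBS1 0.56 and RBCS 0.55. A second probe set of OsMYBS3 gave -0.47, with 24 h and 48 h both below the control, and one of RBCS gave -2.1, so that neither direction is settled. The calls of DREB2B, OsMS1 and MYBS1 at 24 h against the control ended under some alternatives. By the brightest probe sets, 13 of the 26 were lower at 24 h than at 48 h and 13 higher. OsNRAMP5, named after its values were seen and not among the 26, gave -1.06. Over the 26, adjusted p from limma ran between 1.06e-12 for ADH2 and 0.0131 for DREB2B.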

How the results depend on the processing

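The counts of probe sets at 24 h against control stayed within 1.5 times the reported ones under every setting of the test that was run. The study's own rule, a ratio of group means beyond 2-fold with no test, gave 3752 higher and 3457 lower, of which 2518 and 2408 also passed limma. Centring each array on its median moved the split to 5556 higher and 7439 lower, with a median difference of -0.06. Leaving out 1 array at a time gave 6098 to 6256 higher and 5398 to 6425 lower, 11026 to 12449 probe sets for 24 h against 6 h, and 9450 to 11225 for 24 h against 48 h. A group left with 1 array is then assumed to vary like the others.

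Of 112 called named genes, 91 were called under every alternative run for them (12, or 11 for dim genes that the stricter filter leaves out) and 21 lost the call under at least 1, and none changed sign. Of 21 that were not called, 5 were called under an alternative. Same-numbered arrays showed no shared deviation across the tested probe sets (r from -0.01 to 0.02 over 10 pairs of groups). Noise of dim probe sets enters this r, so it cannot show that the samples are unpaired. The labels state no pairing. With the replicate number as a block the counts were 6987 higher, 6533 lower, 13315 against 6 h and 12155 against 48 h. Low signals have noisy log2 values, and 2 arrays per group limit every comparison.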
